A study of Homo sapiens with 2 samples.

Results

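*KRTAP3-1*, a gene for a protein that binds hair keratins, and 9 keratin genes, *KRT8*, *KRT18*, *KRT19*, *KRT20*, *KRT23*, *KRT7*, *KRT80*, *KRT17*, and *KRT81*, were followed in mock- and DAC-treated HCT116 cells by single cell RNA sequencing (scRNA-seq). These 10 genes were picked by name from the 33538 listed genes, and their values in these libraries were known when they were picked, so their values are a description. The HCT116 line came from a human colon carcinoma, and DAC (decitabine) is an analog of deoxycytidine that, once built into DNA, traps the enzymes that methylate it, so that methylation is lost over cell divisions. Counting from seeding (day 0), the drug was dosed at 0.5 μM on day 1, with another dose on day 3, and its exposure ended with a change of medium on day 5, so that the cells grew without it until collection on day 7. The other library is labelled as mock-treated HCT116, and its labels repeat the same text of the schedule without saying what the mock treatment contained. There was 1 library per condition, with 1783 mock-treated and 1751 DAC-treated cells of 1 cell line, so no test was made between the conditions, and the treatment and the library cannot be told apart. Intervals are exact 95% intervals and cover counting error only. The mock-treated library held 49911689 unique molecular identifiers (UMIs, each the tag of 1 captured transcript), with a median of 27899 per cell, and the DAC-treated library held 59046165, with a median of 35340. Cells with over 50% mitochondrial UMIs numbered 311 mock-treated and 319 DAC-treated, and 12 barcodes were present in both libraries.

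Keratins are the intermediate filament proteins of epithelial cells. A filament forms from pairs of an acidic type I keratin and a basic type II keratin, and the genes of each type lie side by side, the type I genes on chromosome 17 and the type II genes on chromosome 12, with *KRT18* as a type I gene next to *KRT8*. KRT8 with KRT18 or KRT19 are the simple-epithelium keratins of the gut lining, while hair keratins such as KRT81 are laid down in the hair shaft, where keratin-associated proteins (KRTAPs) cross-link them. The KRTAP genes are short, are found in several clusters, and are known for expression that is restricted to the hair follicle.

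On hg38 (positions from GENCODE release 44), *KRTAP3-1* (ENSG00000212901) lies on the minus strand at chr17:41008521-41019324, inside the cluster of type I keratin genes. The annotation lists 2 transcripts that end at the same 3′ position, 1 of them starting at 41009128 and the other at 41019324, and since UMIs were counted near the 3′ end, they cannot show which start was used. Of the keratin genes, *KRT20* (chr17:40875889-40885242), *KRT23* (chr17:40922700-40937646), *KRT19* (chr17:41523617-41528308), and *KRT17* (chr17:41619442-41624842) lie in the same cluster, and all are on the minus strand. On chromosome 12 lie *KRT80* (chr12:52168996-52192014), *KRT7* (chr12:52232520-52252186), *KRT81* (chr12:52285913-52291534), *KRT8* (chr12:52897187-52949954), and *KRT18* (chr12:52948871-52952906), of which *KRT7* and *KRT18* are on the plus strand. The 250 bases before the start sites in RefSeq (GRCh38.p14) are printed 5′ to 3′ for *KRTAP3-1*, for the other members of its subfamily (*KRTAP3-2* and *KRTAP3-3*, chr17:40999907-41000156 and chr17:40994165-40994414), for *KRTAP2-3* (chr17:41060115-41060364), whose UMIs per cell were most like those of *KRTAP3-1*, and for *KRT20* (chr17:40885243-40885492). The *KRTAP3-1* stretch is chr17:41009129-41009378, and all are on the minus strand. Capitals mark CG, the dinucleotide that DNA methyltransferases act on, and TATATAA, a form of the TATA box.
KRTAP3-1: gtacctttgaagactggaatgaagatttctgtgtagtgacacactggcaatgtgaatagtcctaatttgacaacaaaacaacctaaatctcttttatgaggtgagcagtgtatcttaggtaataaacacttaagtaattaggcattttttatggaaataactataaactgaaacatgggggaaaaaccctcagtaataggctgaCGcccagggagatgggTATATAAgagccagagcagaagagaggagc
KRTAP3-2: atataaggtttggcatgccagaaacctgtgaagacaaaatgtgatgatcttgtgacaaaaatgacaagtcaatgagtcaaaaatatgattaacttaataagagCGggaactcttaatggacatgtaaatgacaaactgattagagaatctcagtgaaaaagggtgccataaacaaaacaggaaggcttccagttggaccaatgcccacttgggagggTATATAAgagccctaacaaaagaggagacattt
KRTAP3-3: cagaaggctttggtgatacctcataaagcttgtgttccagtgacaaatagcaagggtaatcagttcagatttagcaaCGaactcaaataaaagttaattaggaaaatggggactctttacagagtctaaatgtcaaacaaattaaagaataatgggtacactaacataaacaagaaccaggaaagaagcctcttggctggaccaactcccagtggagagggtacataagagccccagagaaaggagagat
KRTAP2-3: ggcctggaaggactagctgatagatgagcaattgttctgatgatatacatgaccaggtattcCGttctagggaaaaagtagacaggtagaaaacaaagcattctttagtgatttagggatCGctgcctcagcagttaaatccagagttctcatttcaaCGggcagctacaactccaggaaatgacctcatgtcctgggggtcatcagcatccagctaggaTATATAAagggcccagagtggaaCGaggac
KRT20: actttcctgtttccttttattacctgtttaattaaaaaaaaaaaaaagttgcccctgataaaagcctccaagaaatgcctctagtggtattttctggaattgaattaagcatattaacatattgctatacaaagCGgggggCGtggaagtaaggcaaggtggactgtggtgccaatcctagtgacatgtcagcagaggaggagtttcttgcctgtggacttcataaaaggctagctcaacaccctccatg

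These stretches are poor in CG. In the 300-base window of the RefSeq table (250 bases before and 50 after the start), *KRTAP3-1*, *KRTAP3-2*, and *KRT20* had 2 CG each, as did *KRT8*, and 18.2% of the 35114 windows had as few. *KRTAP3-3* had 1 CG and *KRTAP2-3* had 4, whereas the median window had 14. TATATAA, searched on both strands, was present in the windows of *KRTAP3-1*, *KRTAP3-2*, and *KRTAP2-3* and in 2.57% of all windows. Related genes also had it, among them *KRTAP1-5* and *KRTAP2-4*, which had few UMIs, and *KRT12* and *KRT10*. It was not found in the windows of *KRTAP3-3*, *KRT20*, or *KRT8*, or in those of the hair keratin genes *KRT34* and *KRT31*. The *KRT8* window belongs to 1 of its 18 transcripts. The table held 3 of the 10 genes, and *KRT18*, *KRT19*, *KRT23*, *KRT7*, *KRT80*, *KRT17*, and *KRT81* were not in it.

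All 10 genes were detected in both libraries, and all had more UMIs after DAC than after mock treatment. UMIs summed over a library were scaled to its total UMIs (CPM, UMIs per 1000000 UMIs), and 7 of the 10 genes had a CPM at least 2-fold higher after DAC, against 0 that were at least 2-fold lower. Among the 16573 genes that reached 20 UMIs in the library with more of them, 22.9% were at least 2-fold higher and 7.61% at least 2-fold lower. The median log2 CPM ratio was 1.77 over the 10 genes and 0.30 over all genes at that minimum. When the libraries were scaled by the median ratio of 20252 genes instead, every log2 ratio was lower by 0.24, and 5 of the 10 genes stayed past the 2-fold limit against 18.5% of all genes, since *KRT18* and *KRT23* were then at 1.79- and 1.80-fold. On that scale, the log2 ratio of *KRT19* changed from 0.09 to -0.15. Together, the 10 genes took 0.463% of the UMIs of mock-treated cells and 0.829% of those of DAC-treated cells, and *KRT8*, *KRT18*, and *KRT19* alone took 0.456% and 0.771%.

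**Figure D1:**
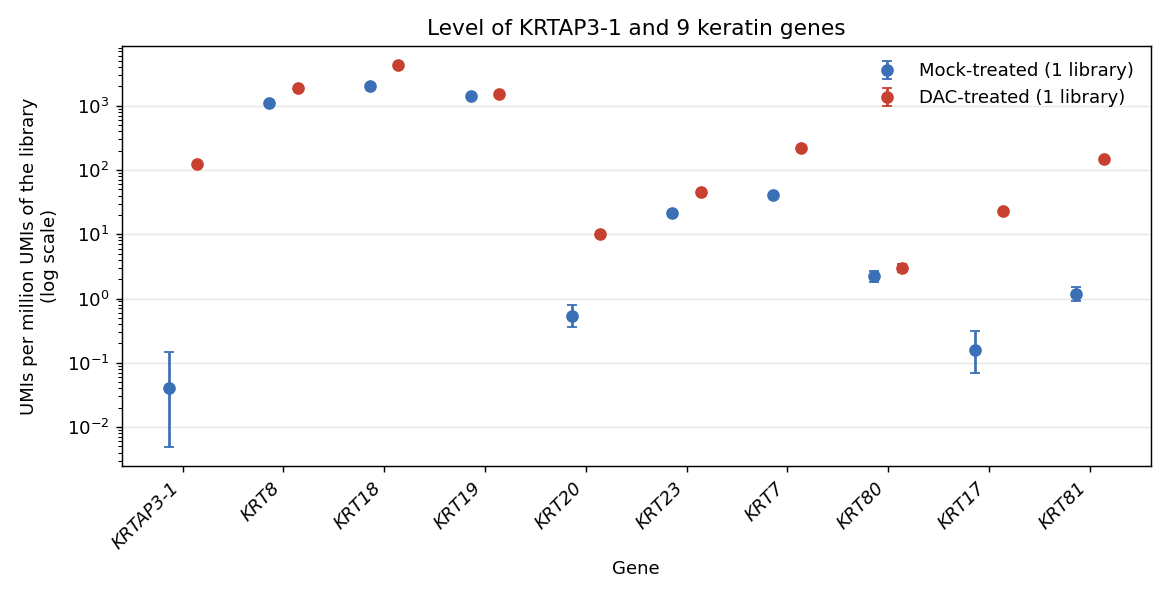
CPM (log scale) of *KRTAP3-1* and the 9 keratin genes in the mock-treated (blue) and the DAC-treated (red) library, with exact 95% Poisson intervals for counting error. *KRTAP3-1* went from 0.0401 to 126 CPM, whereas *KRT19* was at 1439 and 1534 CPM, a log2 ratio of 0.09 that turned to -0.15 with median-of-ratios scaling.

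*KRTAP3-1* was almost absent from mock-treated cells and was detected in a large fraction of the cells given DAC. After mock treatment there were 2 UMIs of *KRTAP3-1*, both in the same cell, and the DAC-treated library held 7450 UMIs in 750 cells (42.8%, 95% confidence interval 40.5 to 45.2%). The CPM was 0.0401 and 126, a 3149-fold difference whose interval ran from 871 to 26005 because of the 2 mock-treated UMIs (log2 ratio 11.62, 9.77 to 14.67). It ranked 6th of the 16573 genes by this ratio, and at 18155th and 1011th place by its UMIs in mock- and DAC-treated cells. The share of mock-treated cells with a UMI was 0.0561% (0.00142 to 0.312%). Stray RNA from the DAC-treated culture was not measured, since empty droplets were not analysed here and 1 cell line holds no cell type that should lack the gene, so the 42.8% counts cells with a UMI and cells with 1 or 2 UMIs may hold stray RNA. When 10000 UMIs were drawn from each cell, the shares were 0.0720% and 27.2%.

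The UMIs of *KRTAP3-1* were spread unevenly among DAC-treated cells. Cells with a UMI had 9.93 on average, but their median was 2 and their upper quartile was 7, and the highest cell had 286. At least 3 UMIs were present in 350 DAC-treated cells (19.99%, 18.1 to 21.9%) and in 0 mock-treated cells, which allows a share of cells at that count of up to 0.168% by the one-sided limit of 3 cells in 1783 and up to 0.207% by the exact two-sided interval. At least 10 UMIs were present in 154 DAC-treated cells and at least 100 in 10 cells. The 42 cells with the most *KRTAP3-1* held 50% of its UMIs, and the top 10% of cells held 82.8%. If the UMIs had been shared out in proportion to the total UMIs of each cell, 385 DAC-treated cells would have been at 0, and 1001 were. Leaving out the highest cell gave a log2 ratio of 11.57.

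Among DAC-treated cells, the share with *KRTAP3-1* was larger in deeper cells. In 3 groups of nearly equal size by total UMIs, it was 20.7% in the shallowest, 44.9% in the intermediate, and 63.0% in the deepest group. The CPM of *KRTAP3-1* in the same groups was 82.4, 111, and 138, so the level differed less between the groups than the share did. The part of depth in the shares was not tested beyond the draw of equal numbers of UMIs.

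The genes next to *KRTAP3-1* on chromosome 17 had few UMIs, with *KRT23* as the exception. On the side of lower coordinates, *KRTAP3-2* had 0 UMIs after mock treatment and 22 after DAC, and 3 cells held all of them. *KRTAP3-3* had 0 in both libraries. *KRT40* and *KRT39*, both hair type I keratins, had 0 and 1 UMIs without DAC and 31 and 9 with it. On the other side, *KRTAP1-5* had 0 and 2 UMIs, *KRTAP1-4* had 0 and 0, *KRTAP1-3* had 0 and 6, *KRTAP1-1* had 2 and 6, and *KRTAP2-1* had 1 and 1. The next gene of the cluster with many UMIs was *KRTAP2-3*, with 257 UMIs in 133 mock-treated cells against 8103 in 879 DAC-treated cells, a 26.7-fold higher CPM (23.5 to 30.3). *KRTAP2-3* has a close copy, *KRTAP2-4*, with 7 and 31 UMIs, and reads from such copies can be split or lost in counting.

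**Figure D2:**
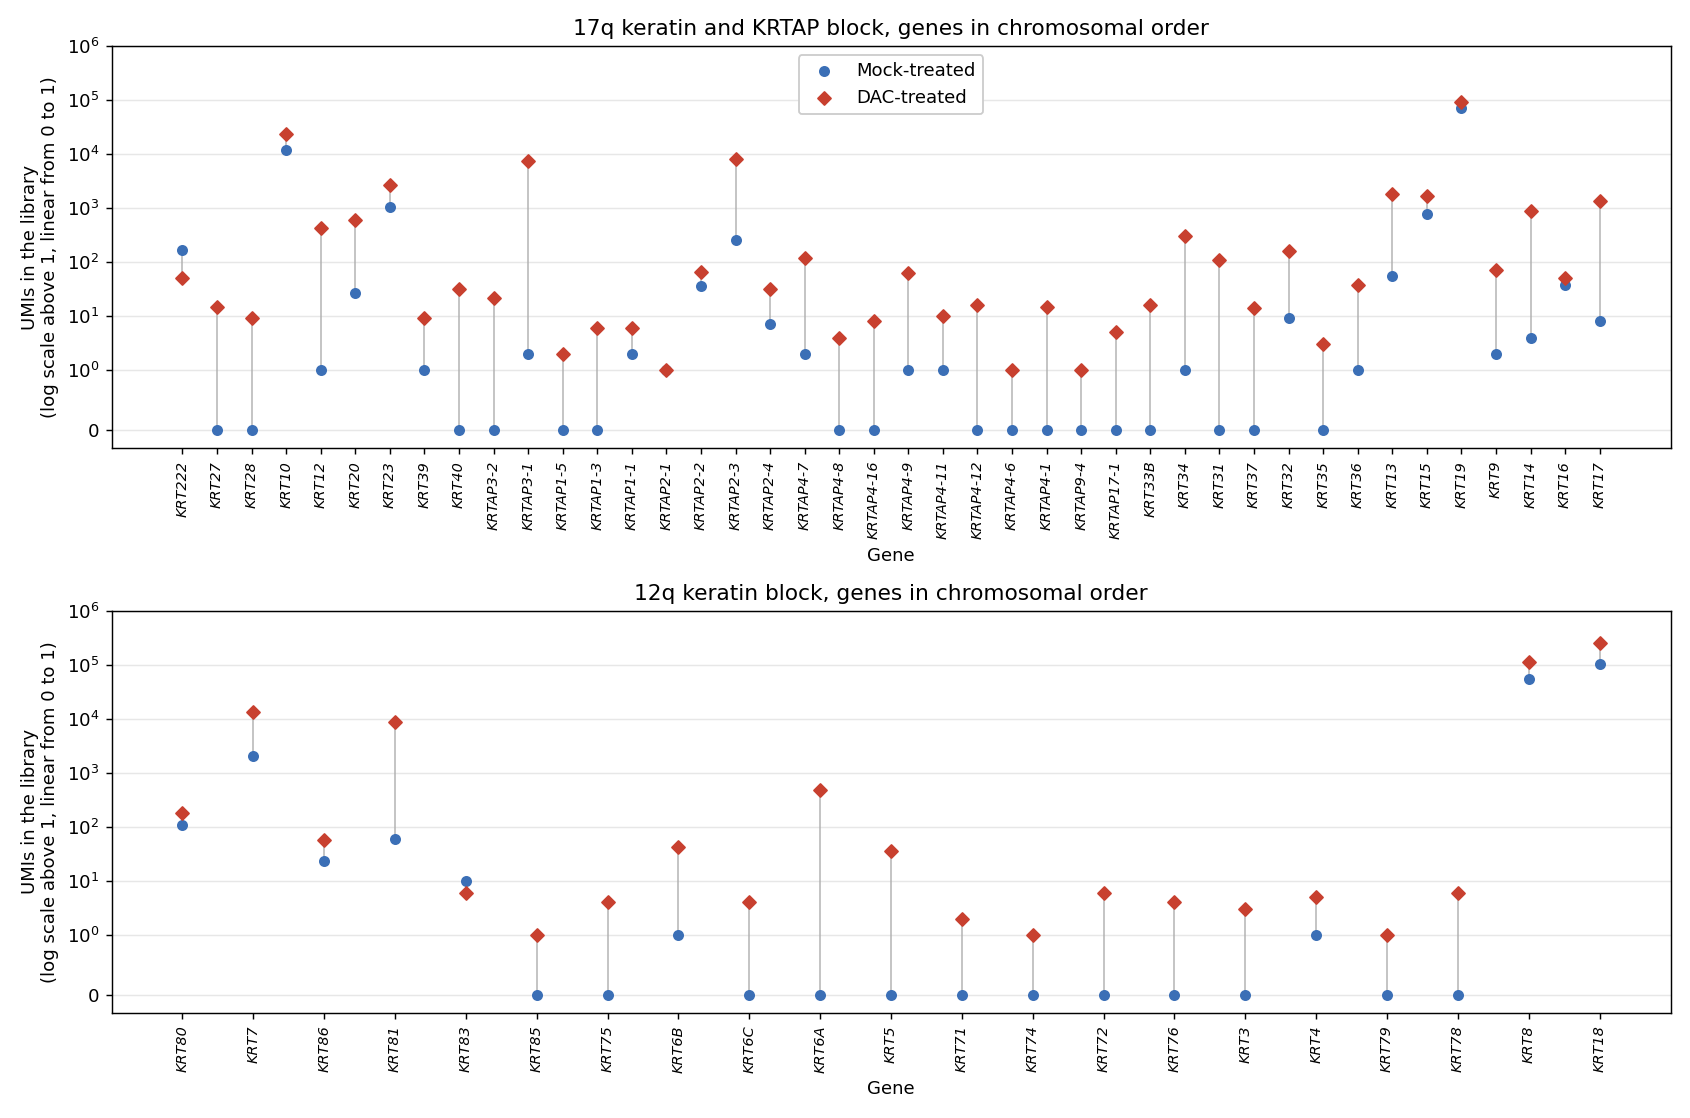
UMIs in the mock-treated (blue circles) and the DAC-treated (red diamonds) library of the keratin and KRTAP genes with a UMI in either library, in chromosomal order on chromosomes 17 and 12, on an axis that is logarithmic above 1. Red lies far above blue at *KRTAP3-1* (2 and 7450 UMIs), while its neighbours *KRTAP3-2* and *KRTAP1-5* reach 22 and 2 UMIs.

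The simple-epithelium keratins were abundant in both libraries, and 2 of the 3, *KRT18* and *KRT8*, had higher levels in DAC-treated cells. *KRT18*, the type I partner of KRT8, had 101301 UMIs in mock-treated and 252746 in DAC-treated cells, or 2029.6 and 4280.5 CPM (2.11-fold, 2.09 to 2.12). It moved from the 79th to the 17th place among all genes by UMIs. *KRT8*, the type II partner, had 54580 and 111870 UMIs, or 1094 and 1895 CPM (1.73-fold, 1.71 to 1.75). *KRT19*, a type I keratin that also pairs with KRT8, had 71817 and 90571 UMIs and differed by 1.07-fold (1.06 to 1.08), and with median-of-ratios scaling the ratio was 0.903. The share of cells with a UMI was already near its ceiling in mock-treated cells for these genes. It was 91.1% and 93.2% for *KRT8*, 94.8% and 98.7% for *KRT18*, and 92.9% in both libraries for *KRT19*.

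The difference in *KRT8* and *KRT18* therefore lay in the number of UMIs per cell. Cells with a UMI had a mean of 59.9 UMIs of *KRT18* in the mock-treated and 146 in the DAC-treated library, and the lower quartile of these cells was lower in the DAC-treated library (8 against 15 UMIs) while the upper quartile was higher (200 against 83). For *KRT8*, the quartiles were 13 and 46 in mock-treated and 7 and 95 in DAC-treated cells. The highest cell had 523 and 1527 UMIs of *KRT18*, and 320 and 818 of *KRT8*. The quartiles of both genes were thus farther apart in DAC-treated cells. Beside this, 395 mock-treated and 458 DAC-treated cells had fewer than 10000 UMIs in all, and the part of depth in the quartiles was not tested. The ratio of *KRT18* to *KRT8* UMIs was 1.86 (1.84 to 1.88) in mock-treated and 2.26 (2.24 to 2.28) in DAC-treated cells. Over cells with 10000 UMIs or more and no more than 50% mitochondrial UMIs, the median ratio per cell was 1.81 (quartiles 1.41 and 2.30, 1298 cells) and 2.23 (1.65 and 3.15, 1120 cells). *KRT8* and *KRT18* overlap on opposite strands in the annotation and have many processed pseudogenes, and the sources used here do not say how strand was used in counting.

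The keratin genes *KRT7*, *KRT20*, *KRT23*, and *KRT80* were rarer, and each had its own size of difference. *KRT7*, a type II keratin of ductal epithelia, had 2045 UMIs in 535 mock-treated cells (30.01%) against 13185 in 1017 DAC-treated cells (58.1%), and its CPM was 5.45-fold higher (5.20 to 5.71). With 10000 UMIs drawn per cell, the shares were 17.4% and 45.1%. Cells with a UMI had 3.82 UMIs of *KRT7* on average in mock-treated and 12.96 in DAC-treated cells, so that both the share and the amount per cell were higher. *KRT20*, a type I keratin of differentiated intestinal epithelium, had 27 UMIs in 15 mock-treated cells (0.841%) against 599 in 219 DAC-treated cells (12.5%), and its CPM was 18.8-fold higher (12.8 to 28.7). The mean of *KRT20* per cell with a UMI was 1.80 and 2.74 UMIs, and 1 mock-treated cell held 9 of the 27. *KRT23*, a type I keratin, had 1064 UMIs in 25.5% of mock-treated cells against 2673 in 33.7% of DAC-treated cells (2.12-fold, 1.98 to 2.28). *KRT80*, a type II keratin, had 110 and 178 UMIs in 4.82% and 7.25% of cells (1.37-fold, 1.07 to 1.75), and no cell had more than 13 UMIs of it. *KRT7* overlaps *KRT86* on the same strand and *KRT7-AS* on the opposite strand, so some of its UMIs may belong to them.

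*KRT17* and *KRT81*, keratins of basal or injured epidermis and of the hair cortex, were close to absent from mock-treated cells. *KRT81*, a type II hair keratin, had 59 UMIs in 37 mock-treated cells (2.08%) against 8787 in 687 DAC-treated cells (39.2%, 36.9 to 41.6%), and its CPM was 126-fold higher (97.5 to 166). At 10000 UMIs per cell, the shares were 0.937% and 26.5%. *KRT17*, a type I keratin, had 8 UMIs in 6 mock-treated cells (0.337%) against 1341 in 267 DAC-treated cells (15.2%), and its CPM was 142-fold higher (71.7 to 329). Both were concentrated in few cells. The 27 cells with the most *KRT81* held 50% of its UMIs, and the highest had 589. For *KRT17*, 12 cells held 50% of the UMIs and 1 cell had 369 of the 1341. Without the highest cell, the log2 ratio of *KRT17* was 6.68 in place of 7.15, and that of *KRT81* was 6.88 in place of 6.98. *KRT81* has close copies in *KRT83* and *KRT86* and overlaps *KRT86* on the opposite strand, and *KRT17* has close copies in *KRT14* and *KRT16*, so part of these UMIs may be assigned to the wrong gene.

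**Figure D3:**
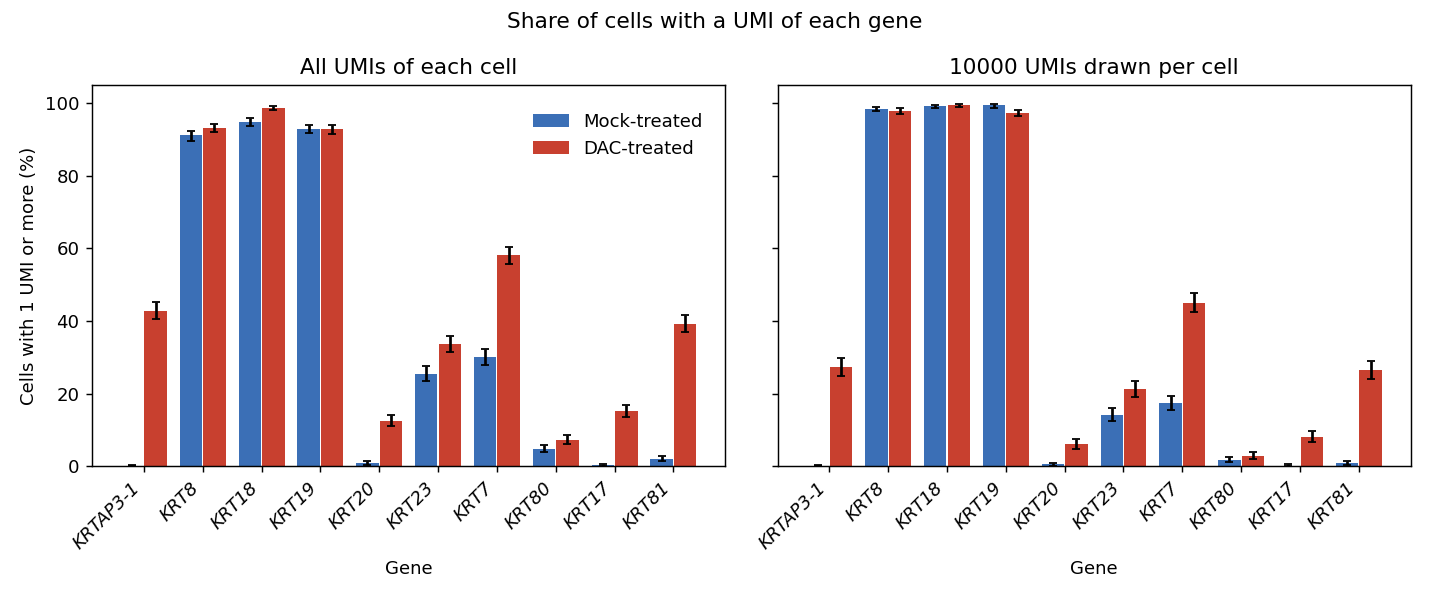
Share of cells with at least 1 UMI of each gene in the mock-treated (blue) and the DAC-treated (red) library, with all UMIs (left) and with 10000 UMIs drawn per cell (right), with exact 95% binomial intervals. *KRT8*, *KRT18*, and *KRT19* were above 90% in both libraries, while *KRTAP3-1* and *KRT81* reached 27.2% and 26.5% of DAC-treated cells at equal depth, against 0.0720% and 0.937% of mock-treated cells.

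By level, the order of the genes differed between the libraries. UMIs near the 3′ end count molecules, so levels were not divided by transcript length. In mock-treated cells, the order of CPM from the top was *KRT18*, *KRT19*, *KRT8*, *KRT7*, *KRT23*, *KRT80*, *KRT81*, *KRT20*, *KRT17*, and *KRTAP3-1*, and the counting intervals of *KRT17* and *KRTAP3-1* (0.0692 to 0.316 and 0.00485 to 0.145 CPM) overlapped. In DAC-treated cells, *KRT8* stood above *KRT19*, and *KRT81* (149 CPM) and *KRTAP3-1* (126 CPM) came next, below *KRT7* (223 CPM) and above *KRT23* (45.3 CPM), *KRT17* (22.7 CPM), *KRT20* (10.1 CPM), and *KRT80* (3.01 CPM). No counting intervals of neighbours in this order overlapped in the DAC-treated library, and without a replicate library the spread between cultures is unknown.

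**Figure D4:**
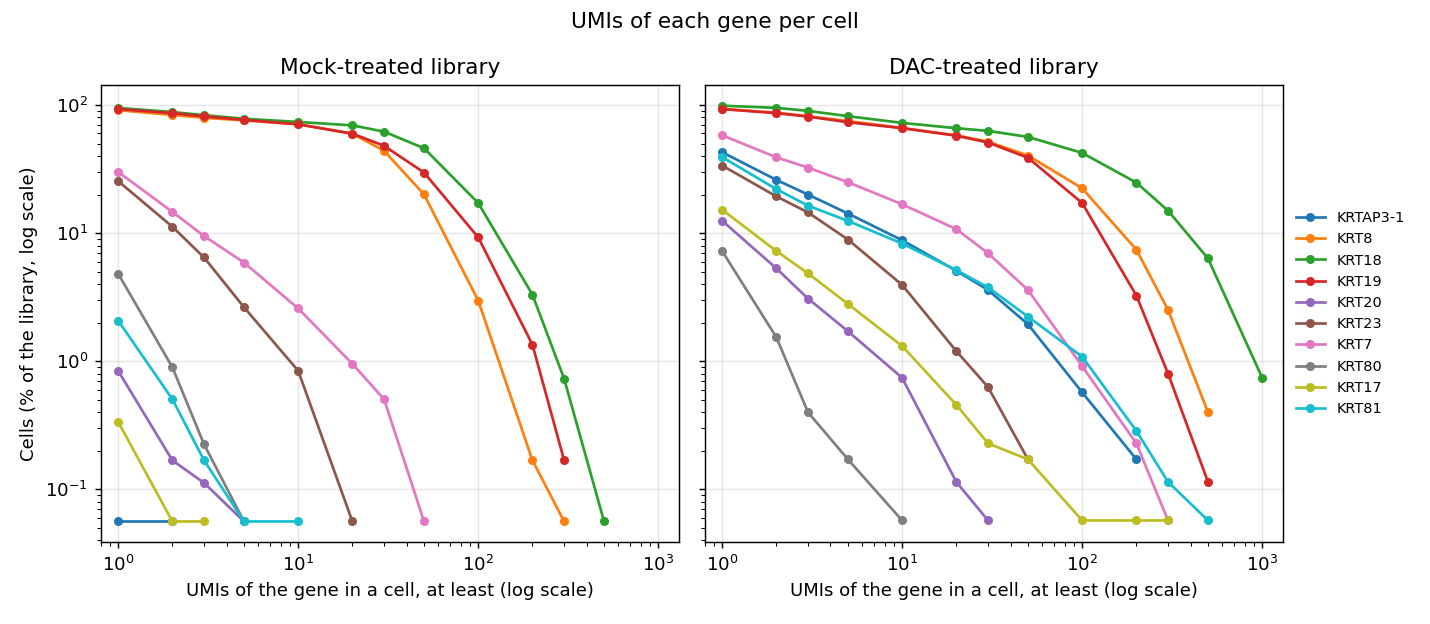
Share of cells (log scale) with at least the number of UMIs on the horizontal axis (log scale) for each of the 10 genes, in the mock-treated (left) and DAC-treated (right) library. The lines of *KRTAP3-1*, *KRT81*, *KRT7*, and *KRT17* extend to 200 UMIs or more in DAC-treated cells, whereas in mock-treated cells the highest cells had 2, 13, 62, and 3 UMIs.

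Most genes of the wider family that could be compared were also higher after DAC. The tables list 149 keratin and KRTAP genes, of which 70 had 0 UMIs in both libraries and 111 had 0 in mock-treated cells. At the minimum of 20 UMIs, 35 genes could be compared, of which 27 were at least 2-fold higher after DAC and 1 was at least 2-fold lower, beside 22.9% and 7.61% of all genes. With median-of-ratios scaling, 24 were higher, beside 18.5% of all genes, and 1 was lower, beside 11.1%. With a minimum of 1 UMI, 42 were higher and 1 lower, beside 24.9% and 9.4% of all genes. Because most of these genes were at 0 in mock-treated cells, a gene could enter the count mainly through the DAC-treated library, and the count over the genes that passed the minimum is a description. *KRT222* was the gene that was lower, with 166 and 51 UMIs. Of 94 KRTAP genes, 9 passed the minimum and 8 of these were higher, and of 55 keratin genes, 26 passed and 19 were higher. All of these family counts include *KRTAP3-1* and the keratin genes followed above, which were picked with their values known. Without them, 25 genes passed the minimum of 20 UMIs, of which 20 were at least 2-fold higher and 1 was at least 2-fold lower. With median-of-ratios scaling, 19 of the 25 were higher and 1 was lower.

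Several epidermal and hair keratins outside the 10 genes also had UMIs mainly in DAC-treated cells, but not all of them. *KRT16*, an epidermal type I keratin, had 37 and 50 UMIs (1.14-fold), and *KRT83*, a hair type II keratin, had 10 and 6. *KRT13*, a type I keratin of the esophagus and oral mucosa, had 54 and 1785 UMIs (27.9-fold, 21.3 to 37.3). *KRT14*, the type I keratin of basal keratinocytes, had 4 and 865 UMIs (183-fold, 71.1 to 672), and *KRT6A*, a type II keratin of injured epidermis, had 0 and 475, at least 134-fold higher against 3 UMIs over the library. *KRT12*, the type I keratin of the cornea, had 1 and 435 UMIs (368-fold, 65.6 to 14556.5). *KRT34*, a type I hair keratin, had 1 and 304 UMIs (257-fold, 45.8 to 10183), and *KRTAP5-8*, on chromosome 11, had 1 and 257 (217-fold, 38.6 to 8614). Keratins that were already common in mock-treated cells differed less, *KRT10*, a type I keratin of differentiating epidermis, with 11888 and 23038 UMIs (1.64-fold) and *KRT15*, a type I keratin of basal cells, with 778 and 1662 (1.81-fold).

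More of the 10 genes were detected together in DAC-treated cells. The median cell had UMIs of 3 of the 10 genes in mock-treated and of 5 in DAC-treated cells, in which 10 was the maximum. Apart from *KRT8*, *KRT18*, and *KRT19*, none of the other 7 genes was detected in 52.4% of mock-treated and 19.1% of DAC-treated cells. At least 4 of the 7 were detected in 4 mock-treated cells (0.224%) and 364 DAC-treated cells (20.8%). With 10000 UMIs drawn per cell, at least 4 were detected in 0 mock-treated cells and in 4.02% of DAC-treated cells.

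From cell to cell, the UMIs of *KRTAP3-1* were most alike to those of *KRTAP2-3*. Over the 1120 DAC-treated cells with 10000 UMIs or more and no more than 50% mitochondrial UMIs, Pearson's r of log2(UMIs per 10000 + 1) was -0.0212 between *KRTAP3-1* and *KRT8*, 0.00700 with *KRT18*, 0.0956 with *KRT19*, -0.00834 with *KRT81*, 0.0169 with *KRT7*, 0.119 with *KRT20*, 0.174 with *KRT10*, and 0.399 with *KRTAP2-3*. These cells share 1 library and the depth of each cell, and r between *KRTAP3-1* and the total UMIs of the cell was 0.105. Of 10930 genes with 200 UMIs or more, *KRTAP2-3* had the highest r, followed by *AL161431.1* (0.257), *GABARAPL1* (0.251), *CPA4* (0.251), and *NORAD* (0.236). *KRTAP2-3* was detected in 75.5% (71.9 to 78.9%) of the 597 cells with *KRTAP3-1* and in 51.8% (47.4 to 56.2%) of the 523 cells without it. Its CPM in the same cells was 182 and 86.2. The cells with *KRTAP3-1* were also deeper, with a median of 50600 UMIs against 42546. Of the keratins, *KRT23* was detected in 53.6% (49.5 to 57.7%) of the cells with *KRTAP3-1* and 39.0% (34.8 to 43.3%) of those without it. *KRT20* was detected in 134 of 597 cells (22.4%, 19.2 to 26.01%) and 68 of 523 cells (10.2 to 16.2%), and *KRT17* in 26.3% and 17.2%, and the part of the greater depth in these shares was not tested. *KRT81* was detected in 56.4% (52.4 to 60.5%) and 48.8% (44.4 to 53.1%), while *KRT8* was at 2000.6 and 1975 CPM.

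*KRT8* and *KRT18* moved together from cell to cell in both libraries. Their r was 0.708 over 1298 mock-treated and 0.826 over 1120 DAC-treated cells, and *KRT18* was the gene with the highest r to *KRT8* in DAC-treated cells. It was followed by *ANXA3* (0.455), *KRT19* (0.437), *ANXA2* (0.411), and *CCND1* (0.410). The annexins bind membranes and *CCND1* encodes cyclin D1. Among the other genes, r with *KRT8* was 0.390 for *KRT7* and -0.309 for *KRT10*, and r between *KRT7* and *KRT81*, which lie close together on chromosome 12, was 0.382. Of the 1120 DAC-treated cells, 523 were at 0 for *KRTAP3-1*, 528 for *KRT81*, and 398 for *KRTAP2-3*. Most of these cells were at 0 for *KRT20* and *KRT17*. The correlations give no measure of independence between genes.

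**Figure D5:**
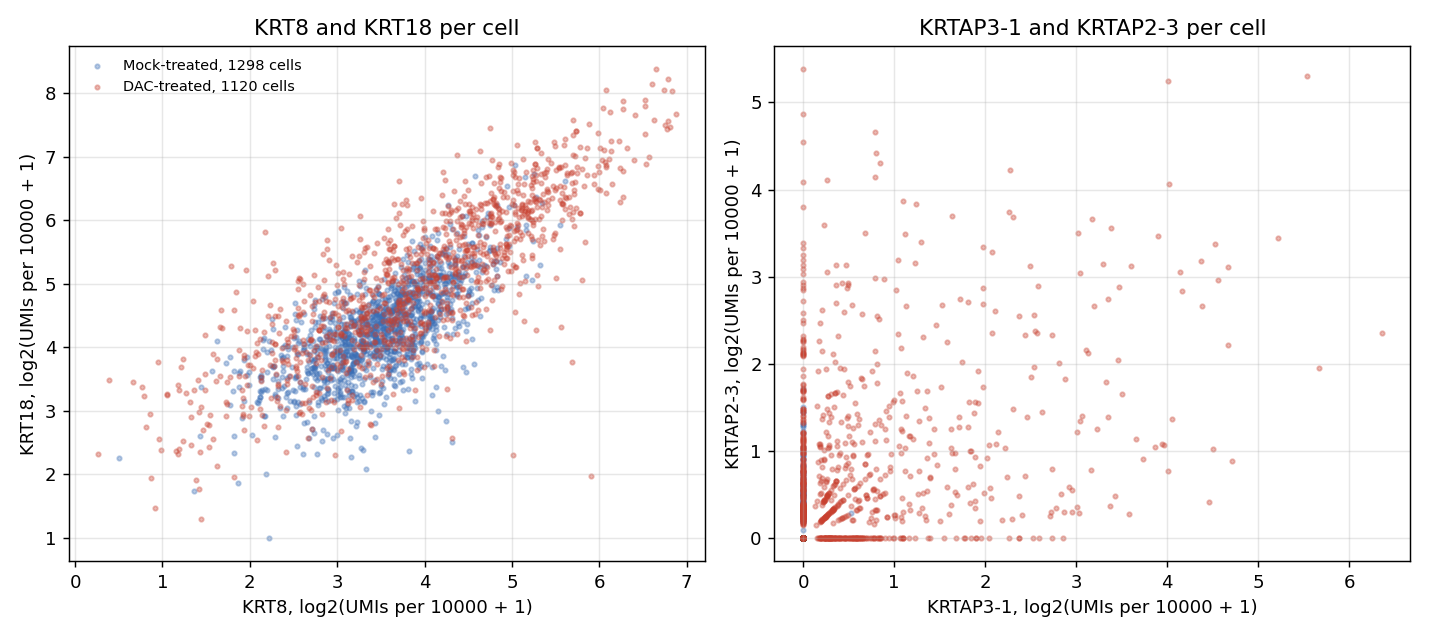
Each point is a cell with 10000 UMIs or more and no more than 50% mitochondrial UMIs, 1298 mock-treated (blue) and 1120 DAC-treated (red, drawn on top), with log2(UMIs per 10000 + 1) of *KRT8* and *KRT18* (left) and of *KRTAP3-1* and *KRTAP2-3* (right). *KRT8* and *KRT18* lie along a line (r of 0.826 in DAC-treated cells), whereas many cells have only *KRTAP3-1* or only *KRTAP2-3* (r of 0.399).

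Most markers of the labelled cell type were detected in both libraries, except that *CDX1* and *CEACAM6* had 0 UMIs in mock-treated cells. Of 14 genes of colon epithelium, which include *KRT8*, *KRT18*, and *KRT19*, 12 passed the minimum of 20 UMIs, and after DAC 2 were at least 2-fold higher (*CDX1* and *KRT18*) and 4 at least 2-fold lower (*CLDN3*, *CLDN4*, *ELF3*, and *ESRP1*), beside 22.9% and 7.61% of all genes. With 0 UMIs in mock-treated cells, *CDX1* could pass the minimum only through the DAC-treated library. *KRT18* was picked with its values known, so the count of higher genes is a description. The median log2 ratio of the list was -0.02, against 0.30 for all genes. *EPCAM*, an adhesion molecule of epithelial cells, had 17419 and 13099 UMIs, *ELF3*, an epithelial transcription factor, had 3072 and 1051, and *ESRP1*, a splicing factor of epithelial cells, had 4296 and 1500. Thus *KRT8* and *KRT18* were higher in the DAC-treated library, in which *EPCAM*, *ELF3*, and *ESRP1* were lower.

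A list of other hair follicle genes, which leaves out *KRT81* and the KRTAP genes, was also counted. Of its 24 genes, of which 16 are keratins, 12 had 0 UMIs in mock-treated cells and 11 passed the minimum, of which 9 exceeded the 2-fold limit upward after DAC (*KRT31*, *KRT32*, *KRT34*, *KRT36*, *KRT40*, *KRT86*, *TCHH*, *MSX2*, and *S100A3*) and 1 was at least 2-fold lower (*PADI3*), beside 22.9% and 7.61% of all genes. With median-of-ratios scaling, 7 were higher, beside 18.5%, and as in the wider family a gene could pass the minimum mainly through the DAC-treated library. *S100A3*, a calcium-binding protein of the hair cuticle, had 191 and 1844 UMIs, *TCHH*, encoding trichohyalin of the inner root sheath, had 13 and 273, and *MSX2*, a transcription factor, had 124 and 303. The hair keratins *KRT33A*, *KRT38*, *KRT82*, and *KRT84* had 0 UMIs in both libraries. The whole list summed to 488 and 3307 UMIs, or 9.78 and 56.0 CPM, so that *S100A3* gave most of the DAC-treated sum. Of 7 keratinocyte genes, 3 of the 6 that passed the minimum were higher (*KRT5*, *KRT14*, and *TP63*) and 0 lower, beside the same 22.9% and 7.61%. *KRT5* and *TP63* had 0 UMIs in mock-treated cells and could pass the minimum only through the DAC-treated library, and *KRT1* was at 0 in both libraries.

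Genes whose products work with keratin filaments were also counted, beside 22.9% of all genes at least 2-fold higher and 7.61% at least 2-fold lower. Of 13 genes of desmosomes and filament linkers, all passed the minimum, and 2 were at least 2-fold higher (*PKP1* and *DSG3*), a share near that of all genes, and 0 lower. *PKP1* had 0 UMIs in mock-treated cells and could pass the minimum only through the DAC-treated library. The median log2 ratio of the 13 genes was 0.16, against 0.30 for all genes. *DSP*, encoding desmoplakin, which anchors keratins at desmosomes, had 6555 and 11543 UMIs (1.49-fold), *PLEC*, encoding plectin, had 5771 and 11553 (1.69-fold), *PERP*, a desmosome protein, had 7641 and 12947 (1.43-fold), and *DST* had 9238 and 7114 (0.651-fold). Of 14 genes of the cornified envelope, the outer shell of epidermal cells, 5 passed the minimum, and 2 were higher (*TGM1* and *SBSN*) and 0 lower. Their median log2 ratio was -0.55, the list summed to 72.0 and 47.5 CPM, and with median-of-ratios scaling 2 were lower, beside 11.1% of all genes. *SBSN* had 16 and 318 UMIs, while *PPL* and *EVPL*, which encode periplakin and envoplakin, had 0.502- and 0.548-fold the CPM of mock-treated cells. Of 10 transcription factors known to regulate keratin genes, 2 were at least 2-fold higher (*GRHL3* and *HNF4A*) and 2 lower (*GRHL2* and *FOS*), the former a share near that of all genes. *FOS* had 3607 and 913 UMIs (0.214-fold).

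Markers of other cell types were counted beside the same 22.9% and 7.61% of all genes. Of 6 fibroblast genes, 2 passed the minimum and 1 of them, *DCN*, was higher, with 0 and 31 UMIs, and the list summed to 10.9 and 19.95 CPM, mostly from *COL1A1*. Of 5 leukocyte genes, 3 passed and all 3 were higher, but the list summed to 21 and 214 UMIs in all, and *PTPRC*, which marks all leukocytes, had 0 and 16. *DCN* and *CD3E* had 0 UMIs in mock-treated cells, so they could pass the minimum only in the direction in which they were called. The summed UMIs of both lists were higher after DAC, as were those of the hair follicle list, and their part in those values was not tested.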

How the data were processed

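scRNA-seq of 1 mock-treated and 1 DAC-treated HCT116 library was analyzed. The kit was a droplet kit of 10x Genomics for the 3′ ends of transcripts, and according to the submitters' processing notes the authors mapped reads to hg38 using Cell Ranger. The deposited tables hold raw UMI counts for every gene in every cell, as whole numbers. The annotation release, the use of strand, and any filter on cells are not given in the sources used here. In both libraries, 24 gene names were repeated. Genes were looked up by name, and Ensembl identifiers were used to match the tables to each other and to positions. Positions were taken from GENCODE release 44, and promoter sequences from RefSeq (GRCh38.p14).

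Sums and shares used every deposited cell, while correlations, detection beside *KRTAP3-1*, and ratios per cell used the 1298 mock-treated and 1120 DAC-treated cells with 10000 UMIs or more and no more than 50% mitochondrial UMIs. No doublet caller was run, since a doublet within 1 cell line has no marker. UMIs were summed per library and scaled to CPM, using scipy 1.17.1, pandas 2.3.3, numpy 2.4.6, and matplotlib 3.10.9 under Python 3.11.15. Shares have exact Clopper-Pearson, sums exact Poisson, and ratios exact conditional 95% intervals, and against 0 UMIs a ratio is a lower limit computed with 3 UMIs over the library. A list's median takes such genes at that limit. The total of 49911689 and 59046165 UMIs sets the precision. Cells of 1 library are not replicates, so no test was made and no p-value is given. The computation of CPM ratios and their intervals was tested on simulated sums of UMIs.

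The 10 genes and all lists were chosen with earlier results of these data known. Besides the 10 genes, the text names keratin and KRTAP genes that reached 200 UMIs in either library, those of the KRTAP3 subfamily or within 5 listed genes of *KRTAP3-1*, in each list the genes with the most UMIs or the largest ratios, and the 5 genes most alike to *KRTAP3-1* and to *KRT8*. The genes of lists past the 2-fold limit, *KRTAP2-4*, *KRT16*, *KRT83*, and genes at 0 were named after their values were seen. Alternatives were median-of-ratios scaling, the mean of per-cell CPM, drawing 1007 (the 10th percentile) or 10000 UMIs per cell, leaving out cells with the most UMIs, with many mitochondrial UMIs, with few UMIs, or with shared barcodes, and other limits. Leaving out the highest cell of a gene was added after the data were seen.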

Additional observations from a re-analysis of the deposited data

How the results depend on the processing

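Under the alternatives run for the 10 genes, 0 were past the fold limit in the lower direction and 5 to 8 in the higher direction. Of 76 alternative values over the other 9 genes, 43 moved by less than their counting interval and 33 by more, and the sign changed for *KRT19* with median-of-ratios scaling (-0.15). The log2 ratio of *KRT80* ran from 0.21, with median-of-ratios scaling, to 1.04, when CPM was averaged over cells. That of *KRT20* ran from 1.97 to 5.87 and that of *KRT17* from 4.85 to 8.50, and these genes had only 27 and 8 mock-treated UMIs in all. The 1.97 is a lower limit, since mock-treated cells had 0 UMIs of *KRT20* with 1007 UMIs drawn per cell. The log2 ratio of *KRTAP3-1* was 6.25 with 1007 UMIs drawn per cell, where mock-treated cells had 0 and the value is a lower limit, 9.62 with 10000, 10.88 without cells over 20% mitochondrial UMIs, and 12.53, the highest, when CPM was averaged per cell. *KRTAP3-1* was detected in 19.99% of DAC-treated cells at 3 UMIs or more, in 9.37% and 27.2% with 1007 and 10000 UMIs drawn, and 53.3% without cells under 10000 UMIs or over 50% mitochondrial UMIs. With a minimum of 1 UMI, 42 keratin and KRTAP genes, counted with the 10 genes among them, were higher, beside 24.9% of all genes. The ratio of *KRT18* to *KRT8* in mock-treated cells was 1.77 and 1.82 with 1007 and 10000 UMIs drawn, 1.83 without the 5% of cells with the most UMIs, and 1.89 without cells over 20% mitochondrial UMIs. In DAC-treated cells it was 2.19, 2.22, 2.22, and 2.23 under these alternatives, and 2.28 without cells under 10000 UMIs or over 50% mitochondrial UMIs. Cells too shallow to draw 1007 UMIs numbered 138 after mock and 214 after DAC treatment, and 395 and 458 for 10000. No paired analysis was possible because each condition had 1 library. For a gene at 0, 3 cells set the upper limit of the share of cells with a UMI, at 0.168% of mock-treated and 0.171% of DAC-treated cells, which does not limit the share of cells that express it.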

Other observations

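Intermediate filament genes of other cell lineages were also measured. Of 13 such genes, 12 passed the minimum of 20 UMIs, and after DAC 7 were at least 2-fold higher (*VIM*, *DES*, *NEFL*, *NEFM*, *NEFH*, *INA*, and *NES*) and 1 at least 2-fold lower (*PRPH*), beside 22.9% and 7.61% of all genes. Since *NEFL*, *NEFM*, *NEFH*, and *INA* had 0 UMIs in mock-treated cells, they could pass the minimum only through the DAC-treated library, and the count is a description. *VIM*, encoding vimentin, the filament protein of mesenchymal cells, had 371 UMIs in 216 mock-treated cells against 28589 in 1149 DAC-treated cells, a 65.1-fold higher CPM (58.8 to 72.4). *NES*, encoding nestin, had 283 and 2903 UMIs (8.67-fold, 7.67 to 9.83). The neuronal filament genes *NEFH* and *INA* had 0 UMIs without DAC and 1453 and 417 with it, at least 409- and 117-fold higher against 3 UMIs over the library. The nuclear lamin genes *LMNA* and *LMNB2* had 1.37- and 1.90-fold the CPM of mock-treated cells.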
